A study of Homo sapiens with 12 samples.

Results

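In the peak lists of SMC1, a subunit of cohesin, 632 of 38018 merged regions were listed only in cells without WAPL, overlapped no CTCF peak and lay away from annotated transcript starts. These distal regions are called members here. They were chosen by merging the 4 SMC1 lists wherever intervals overlapped by at least 1 bp and keeping the regions with a peak in ΔWAPL cells and in none of the other 3 genotypes. Regions that overlapped a CTCF interval of any genotype were then left out, as were those with a ΔWAPL summit within 1 kb of a transcript start. Of the 38018 regions, 9238 (24.3%) had a peak in ΔWAPL cells only, a share on which the selection itself rests. Of these, 5046 were at CTCF and 3560 lay without CTCF within 1 kb of a start. The members were 6.84% of the 9238 and 15.1% of the 4192 without CTCF (95% Wilson interval 14.03 to 16.19). Each member held 1 ΔWAPL peak, and 631 of the 632 lay on chromosomes 1 to 22 and X.

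The cells were HAP1, a near-haploid human line derived from chronic myeloid leukaemia, which carries mutant p53. Chromatin was precipitated with antibodies against SMC1 or CTCF, or with IgG, in 4 genotypes, namely wild-type, ΔWAPL (the line labelled WaplKO_3.3), ΔSCC4 and the double mutant ΔWAPL/ΔSCC4. WAPL was disrupted by CRISPR with insertion of a blasticidin cassette and SCC4 with a puromycin cassette, and the double mutant was made from ΔWAPL cells. Each genotype and antibody had 1 library, so no test between genotypes was possible, and the effect of WAPL loss cannot be told apart from that of the clone or the precipitation.

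Cohesin is a ring that entraps DNA and is thought to enlarge chromatin loops until it meets CTCF, a zinc-finger protein bound to its motif. The SCC2/SCC4 complex promotes the loading of cohesin, and WAPL opens the ring to release it. In mammalian cells most stable cohesin sites coincide with CTCF, whereas sites elsewhere often lie at active promoters and enhancers. REST, which also appears below, is a repressor that binds an element of paired sequence arms and keeps many neuronal genes silent outside the nervous system.

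The sequences at the summits fell into recognisable kinds, of which examples are shown first because the results below turn on them. All are from GRCh37 (hg19), 5′ to 3′ on the strand given. The first set holds members with a REST element, defined by the left arm TTCAGCACC and the right arm GGACAGCGC with 2 bases between them, searched on both strands. Up to 3 mismatches over the 18 letters were accepted. Letters that match the arms are in capitals, with 12 bases of context on each side. Shown are those with at most 2 mismatches or a −log10 q of at least 10, in descending order of −log10 q.
CCDC33 intron, chr15:74583979-74584022, plus strand: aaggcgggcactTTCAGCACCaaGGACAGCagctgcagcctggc
intergenic, nearest coding start LHX2, chr9:126872745-126872788, plus strand: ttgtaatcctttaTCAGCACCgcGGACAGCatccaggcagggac
intergenic, nearest coding start CHAT, chr10:50815160-50815203, plus strand: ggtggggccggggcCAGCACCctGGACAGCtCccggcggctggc
exon of LHX5-AS1, nearest coding start LHX5, chr12:113918058-113918101, minus strand: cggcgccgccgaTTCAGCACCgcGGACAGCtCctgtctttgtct
intergenic, nearest coding start PRR23E, chr3:126877831-126877874, minus strand: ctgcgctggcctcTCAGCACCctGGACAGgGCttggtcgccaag
intergenic, nearest coding start RPS19BP1, chr22:39941952-39941995, plus strand: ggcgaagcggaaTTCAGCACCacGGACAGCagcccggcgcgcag
intergenic, nearest coding start LIN28A, chr1:26735176-26735219, plus strand: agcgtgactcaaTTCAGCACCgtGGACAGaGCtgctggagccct
intergenic, nearest coding start NR2F1, chr5:92948374-92948417, minus strand: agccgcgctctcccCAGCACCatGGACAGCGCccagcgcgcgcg
SLC7A14 intron, chr3:170302483-170302526, plus strand: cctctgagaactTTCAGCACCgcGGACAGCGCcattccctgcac
intergenic, nearest coding start MRM1, chr17:35060403-35060446, plus strand: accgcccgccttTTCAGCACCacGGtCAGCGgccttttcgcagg
MYT1 intron, chr20:62793400-62793443, minus strand: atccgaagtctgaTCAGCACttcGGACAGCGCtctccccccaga
coding exon, nearest coding start ZDHHC22, chr14:77600260-77600303, plus strand: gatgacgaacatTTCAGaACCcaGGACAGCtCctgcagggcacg

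In the second set, 5 members carry a match to the CTCF motif learned from wild-type CTCF peaks, although no CTCF peak overlapped them. These are the strongest such members on even chromosomes that could be shown, and capitals mark the 19 bases of the match.
intergenic, nearest coding start ITIH5, chr10:7565825-7565867, minus strand: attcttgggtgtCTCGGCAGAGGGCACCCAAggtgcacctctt
PHLPP1 coding exon, chr18:60384193-60384235, plus strand: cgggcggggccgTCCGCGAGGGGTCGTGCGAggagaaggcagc
intergenic, nearest coding start NCR2, chr6:41339348-41339390, plus strand: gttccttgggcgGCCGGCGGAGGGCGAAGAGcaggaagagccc
intergenic, nearest coding start CYTIP, chr2:158361194-158361236, plus strand: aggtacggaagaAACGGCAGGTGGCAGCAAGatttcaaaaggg
HDAC4 intron, chr2:240041484-240041526, plus strand: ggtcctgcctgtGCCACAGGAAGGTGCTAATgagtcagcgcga

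Next are the central 150 bases of 3 CpG-rich members with neither of those matches, the strongest that could be shown. Capitals mark CG dinucleotides. The C2CD4A sequence held 19 of them, the sequence near MAP3K7 20 and the sequence near GLI3 11.
C2CD4A coding exon, chr15:62360631-62360780, plus strand: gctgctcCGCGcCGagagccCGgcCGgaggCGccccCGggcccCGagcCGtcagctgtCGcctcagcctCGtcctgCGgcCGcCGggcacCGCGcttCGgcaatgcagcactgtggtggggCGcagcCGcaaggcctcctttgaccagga
intergenic, nearest coding start MAP3K7, chr6:91320806-91320955, plus strand: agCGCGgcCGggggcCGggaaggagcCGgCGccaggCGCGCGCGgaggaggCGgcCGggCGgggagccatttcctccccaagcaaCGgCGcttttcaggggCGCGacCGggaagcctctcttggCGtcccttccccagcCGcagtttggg
intergenic, nearest coding start GLI3, chr7:42533194-42533343, plus strand: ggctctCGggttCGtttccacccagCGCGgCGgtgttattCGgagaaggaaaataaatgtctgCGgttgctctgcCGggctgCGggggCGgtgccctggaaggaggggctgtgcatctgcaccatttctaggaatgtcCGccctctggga

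The last pair are the strongest members with none of these properties that could be shown, again with CG in capitals. They held 3 and 7 CG dinucleotides. The CTCF motif was searched only within 50 bp of the summit, so the outer bases shown here were not searched for it.
intergenic, nearest coding start RPUSD4, chr11:126057012-126057161, plus strand: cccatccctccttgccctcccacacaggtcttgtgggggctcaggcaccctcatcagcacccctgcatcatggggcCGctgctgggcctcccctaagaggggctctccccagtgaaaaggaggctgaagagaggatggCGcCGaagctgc
DRD3 coding exon, chr3:113866268-113866417, plus strand: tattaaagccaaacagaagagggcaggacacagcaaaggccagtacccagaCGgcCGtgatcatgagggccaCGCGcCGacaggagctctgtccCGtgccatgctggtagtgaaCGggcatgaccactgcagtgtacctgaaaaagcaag

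The members were weak peaks. Fold enrichment, which sets the reads piled up at the summit against those of the local background, had a median of 4.26 (95% interval of the median 4.22 to 4.35), with quartiles of 3.82 and 4.81 and a range from 2.28 to 11.2. These values are of the library that chose the members and are given as a description. The −log10 q of the peak caller had a median of 4.70 and ran from 1.70 to 22.4. Within the ΔWAPL list, 613 of the 632 members (97.0%) fell below the median −log10 q, and the highest stood at percentile 74.6. Reads were sparse, with a median summit pileup of 14 reads among the 623 members for which it could be recovered (lowest 8, highest 106), or 8.79 times the average of the library. Only 28 members reached a −log10 q of 10 and 3 reached 8-fold enrichment. Peaks were narrow as well, with a median interval of 242 bp, where the shortest possible was the fragment length of 208 bp.

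**Figure D1:**
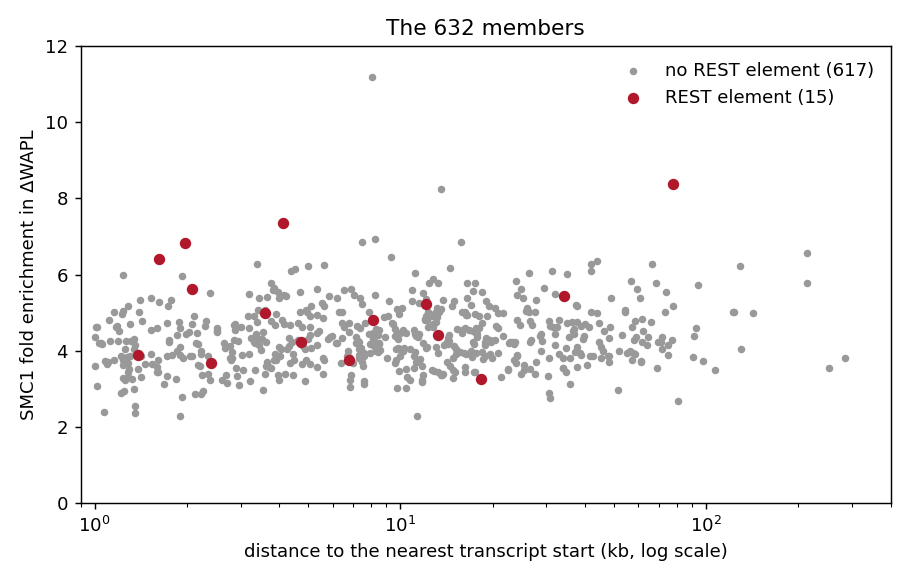
Each point is one of the 632 members, placed by the distance of its ΔWAPL summit from the nearest transcript start (kb, log scale) and its SMC1 fold enrichment in the ΔWAPL library. Red points mark the 15 members with a REST element, which include 4 of the 28 members with a −log10 q of at least 10. The quartiles of fold enrichment are 3.82 and 4.81, and the highest member reached 11.2-fold.

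In strength the members resembled the ΔWAPL-only regions near starts, whose median fold enrichment was 4.27 (4.24 to 4.31, n = 3560). ΔWAPL-only regions at CTCF more than 1 kb from a start had a median of 5.11 (n = 3522), and distal regions listed in all 4 genotypes 9.15 (n = 8215). How much lower the signal was in the other genotypes is not given by lists that hold peaks only, but a bound can be had where the local background was at the floor of the library. This was so for 75 members. The weakest peak listed at such a background had 9 reads in wild-type cells, 5.71 times that library's average. In the ΔWAPL list the weakest also had 9 reads, 5.65 times the average of its library. A listed member was thus near or above the wild-type level by selection, and the counts that follow describe its ΔWAPL signal only. Of the 75 members, 69 exceeded the wild-type level in ΔWAPL cells, and 15 stood at least 1.5 times above it. Over all 75 the median ratio to this level was 1.32. Against ΔSCC4 cells the median ratio was 1.40 and against the double mutant 1.29. Of the 75, 1 stood at least 2 times above the wild-type limit. These ratios hold only if the background at the same site was also at its floor in the other library, which the lists do not show, and for the other members the lists give no such bound.

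The 10 strongest members by −log10 q illustrate their range of settings. The highest lay between genes on chromosome 9 (chr9:70402978-70403332), 8083 bp from the start of an immunoglobulin kappa pseudogene, IGKV1OR-3. It had 28 reads over a background at the floor of 1.59 reads. The caller's formula, which adds the same constant to both counts, gave 11.2-fold enrichment, with a −log10 q of 22.4. No CTCF interval lay within 251761 bp of this member. Repeats and mappability were not used here, so members in repeated or duplicated sequence, where reads may be misplaced, were not counted. The next was the CCDC33 member (chr15:74583863-74584163), in an intron 4121 bp from a start, with 42 reads, 7.35-fold enrichment and a −log10 q of 22.03. It carries a REST element, as shown above.

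The member nearest ITIH5 (chr10:7565669-7565990) had 41 reads and 6.47-fold enrichment, and lay 1478 bp from a CTCF interval. That in the coding exon of C2CD4A (chr15:62360027-62360985) was the widest of all, at 959 bp, with 49 reads and 5.39-fold enrichment. The member near LHX2 (chr9:126872616-126872953), which encodes a LIM-homeodomain factor of forebrain and limb development, had 30 reads and 8.37-fold enrichment and a second REST element. It was 77948 bp from any annotated start. A member on the X chromosome (chrX:40401502-40401804) had 44 reads and 5.62-fold enrichment, 36942 bp from the start of ATP6AP2.

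The other 4 of the 10 were in a coding exon of PHLPP1, which encodes a phosphatase that acts on AKT (43 reads, 4.77-fold), between genes near NCR2 (46 reads, 4.49-fold), in an intron of DAB1 (22 reads, 8.25-fold) and in an intron of PDE4DIP (49 reads, 4.16-fold). DAB1 is an adaptor of the reelin pathway in neuronal migration. The 10 therefore spanned introns, coding exons and intergenic sequence. At the other end, the weakest member lay in an intron of FRMD6 (chr14:51974641-51974848), with 8 reads, 3.28-fold enrichment and a −log10 q of 1.70.

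A first question was whether the members lay in genes. Of the 632, 287 (45.4%, 41.6 to 49.3) had their summit in a protein-coding gene. Bases that could have held a member, which are more than 1 kb from a start, outside CTCF intervals and of known sequence, came to 2606 Mb, and 44.2% of them were in protein-coding genes. The share of members was thus not distinguishable from that of the available sequence. It was below the 50.5% of the ΔWAPL-only distal regions at CTCF, by 5.07 points (Newcombe 95% interval of members minus class −9.25 to −0.838). Against the distal regions of all 4 genotypes the difference was 3.32 points, with an interval from −0.671 to 7.36. Introns of protein-coding genes held 246 members and intergenic sequence 264. Coding exons held 23 members (3.64%, 2.44 to 5.40) but made up only 0.862% of the available bases. They held 3.01% of the ΔWAPL-only distal regions at CTCF and 1.61% of the distal regions of all 4 genotypes. Exons of other genes, outside protein-coding genes, held 11 members (1.74%, 0.975 to 3.09) and 0.743% of the bases.

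Gene ends are places where cohesin can gather when it is moved by transcription. There were 25 members within 2 kb of the end of a protein-coding gene (3.96%, 2.69 to 5.77), compared with 2.29% of the available bases. This excess was lost more than 5 kb from any start, where the share was 1.695% (0.823 to 3.46) for members and 1.49% for bases. In the 3 classes used for comparison the shares were 5.87%, 5.91% and 5.56%, and the intervals of the differences from members all reached 0. Along the host gene the members were spread from start to end. When genes were cut into 4 equal stretches, the 272 members inside exactly 1 protein-coding gene were distributed as 73, 53, 74 and 72 from the start of the gene to its end.

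Although all members were by choice more than 1 kb from a start, they still lay nearer to starts than the sequence available to them. The median distance was 9.43 kb (8.08 to 10.7), compared with 15.7 kb for the available bases. Between 1 and 2 kb lay 89 members (14.1%, 11.6 to 17.0), whereas 6.32% of the bases did, and beyond 50 kb lay 8.70% of members and 19.6% of bases. Such a pattern was not particular to members, because the ΔWAPL-only distal regions at CTCF had a median of 9.50 kb and those of all 4 genotypes one of 9.95 kb. Close to a coding start the members were more often on its downstream side. Within 5 kb this was the case for 86 of 137 (62.8%, 54.4 to 70.4), whereas 51.5% of the available bases at that distance were downstream. The skew was not particular to members, as the ΔWAPL-only regions near starts without CTCF had 2014 of 3369 downstream (59.8%, 58.1 to 61.4). The share was 52.8% (49.2 to 56.5) for the ΔWAPL-only distal regions at CTCF and 47.6% (45.1 to 50.2) for those of all 4 genotypes. Beyond 20 kb it was 172 of 322 members (53.4%, 48.0 to 58.8) and 51.1% of bases. The member farthest from a start (chr5:123272395-123272714) was 284262 bp away and had 18 reads and 3.82-fold enrichment.

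The 1 kb limit cut through a continuum. The members just outside it had summits 1006 bp from starts of TRIM71 and CALCR and 1012 bp from a start of ZNF367, with fold enrichments of 3.60, 4.37 and 4.61. The regions just inside it, which are not members, were 992 bp from TOX-DT and 982 bp from HMGB3, with 3.299 and 4.58.

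The members also lay near CTCF, beyond the overlap that the selection excluded. Their median distance to a CTCF interval of any genotype was 6.48 kb (5.61 to 7.62), against 22.4 kb for the available bases. For the ΔWAPL-only regions near starts without CTCF it was 8.31 kb (7.68 to 8.76). Within 1 kb of a CTCF interval were 119 members (18.8%, 15.97 to 22.06), 16.6% of those regions near starts, and 3.295% of the bases. Another SMC1 summit of the same library lay within 1 kb of 86 members, within 5 kb of 202 and within 20 kb of 417. Another member lay within 100 kb of 59 members (9.34%, 7.31 to 11.9) and within 10 kb of 23 (3.64%, 2.44 to 5.40). Of the available bases, 4.15% were within 100 kb of a member and 0.428% within 10 kb.

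**Figure D2:**
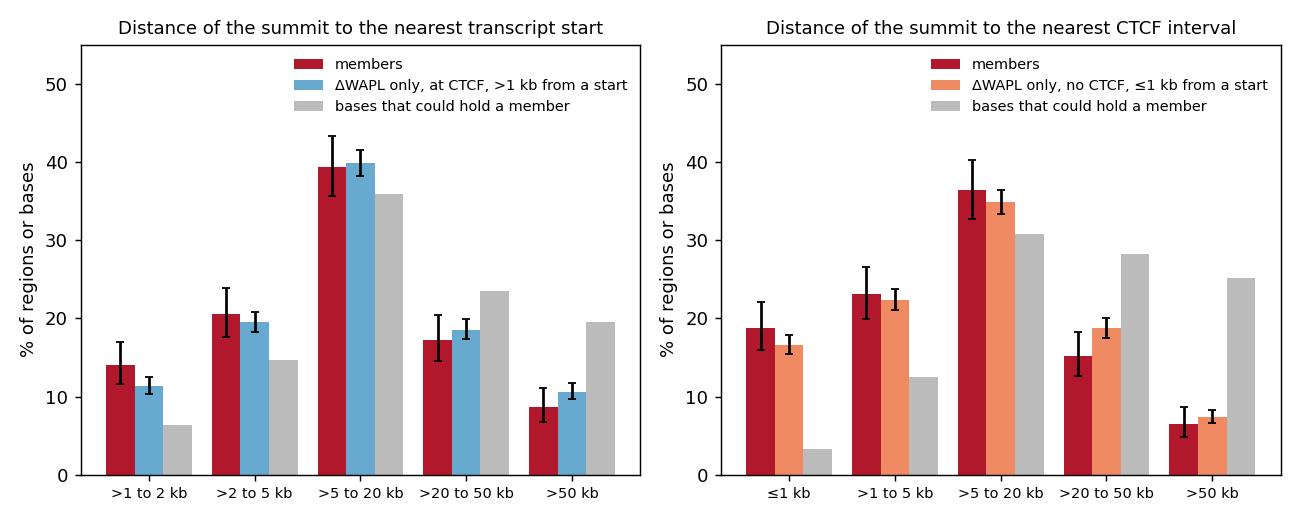
The bars give the percentage of members (red), of a like class of regions and of the bases that could hold a member (grey) by distance of the summit to the nearest transcript start (left) or CTCF interval (right). Error bars are 95% Wilson intervals, and bases have none. Members exceed the bases in the nearest bands, with 14.1% against 6.32% at 1 to 2 kb from a start and 18.8% against 3.295% within 1 kb of CTCF.

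The base composition of the members distinguished them from their surroundings. In windows that reached 150 bp to either side of the summit, the median GC content was 54.8% (53.8 to 55.8, n = 631). In windows of the same length 1 kb away it was 44.2% downstream and 43.5% upstream. The ΔWAPL-only regions near starts were richer, at 69.8%, and the distal regions at CTCF and of all 4 genotypes were poorer, at 48.5% and 49.2%. As the profile of GC content shows, the members formed a peak of intermediate height whose flanks returned to the level of the other distal classes within about 1 kb.

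**Figure D3:**
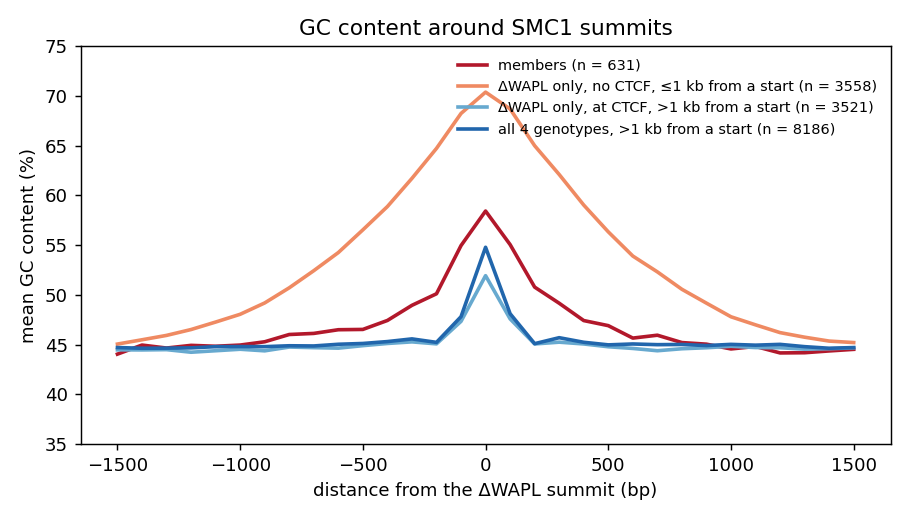
The lines give the mean GC content (%) of short windows by distance from the ΔWAPL summit (bp) for the members and the 3 classes of comparison. Members lie below the ΔWAPL-only regions near starts and above both other distal classes at the summit.

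Part of this composition came from sequence of the CpG island kind, the unmethylated CpG-dense sequence typical of promoters. A window was called CpG-rich where its GC content was at least 55% and its ratio of observed to expected CG dinucleotides at least 0.65. This held for 147 of 631 members (23.3%, 20.2 to 26.8) and for 65 of 1262 flanking windows (5.15%), a difference of 18.1 points (14.7 to 21.8). Only 3.15% of the ΔWAPL-only distal regions at CTCF and 7.65% of the distal regions of all 4 genotypes were CpG-rich, so that members exceeded the former by 20.1 points (17.0 to 23.6) and the latter by 15.6 points (12.5 to 19.1). The regions near starts reached 85.6%. CpG-rich members lay closer to starts, at a median of 3.88 kb (3.21 to 5.63), than the other members, at 11.4 kb (9.77 to 12.8). They were hardly different in strength, with median fold enrichments of 4.19 (4.05 to 4.28) and 4.30 (4.23 to 4.39). The GLI3 example above lay 212.8 kb from any annotated start, with 16 reads and 6.55-fold enrichment. Whether unannotated promoters lie at such members was not tested.

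CTCF motif matches were more frequent at the members than in their flanks, although the selection left out every region at a CTCF peak. On even chromosomes, which were not used to learn the motif, 73 of 283 members (25.8%, 21.1 to 31.2) had a match within 50 bp of the summit. Windows 1 kb away matched in 35 of 566 cases (6.18%), a difference of 19.6 points (14.3 to 25.3). Those windows were also poorer in GC, as given above. Over all chromosomes, members with a match had a median GC content of 57.1% (55.8 to 59.8) and those without one 54.0% (52.8 to 54.8). How much of the excess goes with base composition was not tested. The members' share on even chromosomes did not differ detectably from the 22.9% of the ΔWAPL-only regions near starts without CTCF. The difference was 2.92 points (−2.28 to 8.68). That share was far below the 59.5% of ΔWAPL-only distal regions at CTCF and the 77.8% of the distal regions of all 4 genotypes. Of wild-type CTCF peaks 79.0% matched. The share among the regions chosen depended on the peaks admitted. When only peaks with a −log10 q of at least 10 were kept in every list, 64.8% (51.5 to 76.2) of the regions chosen had a match. Under that filter weak CTCF peaks no longer removed a region, and weak SMC1 peaks of all genotypes were dropped too. These changes were not separated, and the classes of comparison were not recounted. The match became more frequent with the strength of the member. Over all chromosomes it was present in 78 of 345 members with a −log10 q below 5 (22.6%, 18.5 to 27.3), in 71 of 258 from 5 to 10 (27.5%, 22.4 to 33.3) and in 14 of the 28 above (50.0%, 32.6 to 67.4). The example near ITIH5 is the strongest of these on even chromosomes, and the one near CYTIP had 23 reads and 6.87-fold enrichment.

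A set of 21 short sequence words of other factors was searched within 100 bp of the summit on both strands. For 5 of them the interval of the difference between members and flanks excluded 0. They were the words of REST, SP, C/EBP and the A and B boxes of RNA polymerase III genes. The 21 intervals were not adjusted for their number, and the flanks were poorer in GC than the summits. The left arm of the REST element was present in 12 of 631 members (1.90%, 1.09 to 3.29) and in none of 1262 flanking windows, where a count of 0 allows up to 0.238% (3 counts of the total) or, as a Wilson limit, 0.3035%. It was found in 0.546% of all ΔWAPL SMC1 peaks. The SP word GGGGCGGGG, bound by SP1 and its relatives at GC-rich promoters, was present in 29 members (4.60%) and in 0.872% of flanks, a difference of 3.72 points (2.19 to 5.69). This word overlaps the CpG-rich sequence described above, and 13.7% of the regions near starts held it against 4.53% of all ΔWAPL SMC1 peaks. The C/EBP word TTGCNNAA was less frequent at members (4.91%) than in flanks (9.75%) or in all ΔWAPL peaks (7.58%). In the regions near starts it was rarer still (3.40%). The AP-1 word TGANTCA, a mark of many enhancers, was equally frequent at members and in flanks (5.23%), and 4.27% of all ΔWAPL peaks held it. The A box word TGGCNNAGT, added after the first count of the other words, was present in 26 members (4.12%, 2.83 to 5.97) and 22 flanks (1.74%), a difference of 2.38 points (0.812 to 4.32). Of all ΔWAPL peaks 2.73% held it. The GATA word AGATAAG was present in 1.90% of members and 2.85% of flanks. For RUNX, with the word TGTGGTT, the shares were 2.38% and 3.88%. The TEAD word TGGAATG gave 3.01% and 3.33%. The intervals of these 3 differences included 0. They also did so for CRE (TGACGTCA), for ETS factors (CCGGAAG), for NFY (CCAATCA), for NRF1 (GCGCATGCG), for YY1 (AAGATGGCG), for the E-box (CACGTG), for OCT factors (ATGCAAAT), for FOX factors (TGTTTAC), for SOX factors (AACAAAG), for RFX (GTTGCCATG), for ATF4 (TGATGCAAT) and for HSF (GAANNTTC). At these 12 words the members' shares ran from 0.158% to 4.44%.

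The full REST element separated the members more sharply. Its definition was chosen after the count of the left arm had been seen. With at most 3 mismatches it was present in 15 of 631 members (2.38%, 1.45 to 3.89) and in 0 of 1262 flanking windows. Of the ΔWAPL-only regions near starts 29 of 3558 held it (0.815%), a difference of 1.56 points (0.566 to 3.09). Among the ΔWAPL-only distal regions at CTCF it was found in 5 of 3521 (0.142%) and among distal regions of all 4 genotypes in 11 of 8186 (0.134%). The differences from members were 2.24 points (1.28 to 3.75) and 2.24 points (1.31 to 3.75). Over all 33893 ΔWAPL SMC1 peaks it was present in 106 (0.313%). With at most 2 mismatches the members numbered 10 and with at most 4 they numbered 17, against 0 and 2 flanking windows. Against the regions near starts the separate intervals of the shares overlapped at both limits. No interval of the difference was taken there, so the overlap does not settle whether the shares differed. With at most 2 mismatches the shares were 1.59% (0.863 to 2.89) of members and 0.675% (0.454 to 1.00) of those regions. With at most 4 they were 2.69% (1.69 to 4.27) and 1.60% (1.24 to 2.07).

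The 15 members with this element were not spread evenly over strength. They made up 4 of the 28 members with a −log10 q of at least 10 (14.3%, 5.70 to 31.5), 7 of 258 from 5 to 10 (2.71%) and 4 of 345 below (1.16%, 0.452 to 2.94). Their median fold enrichment was 4.99 (3.90 to 6.41), and that of the other members 4.25 (4.21 to 4.34). The centre of the element lay within 50 bp of the summit in 13 of the 15.

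The genes nearest to these members were of several kinds. One member lay 1.97 kb from a start of CHAT, which encodes choline acetyltransferase, the enzyme that makes acetylcholine, and had 22 reads and 6.82-fold enrichment. The element with 1 mismatch in LHX5-AS1 was 7.96 kb from the start of LHX5, a LIM-homeodomain gene of the developing brain, and had 21 reads and 6.41-fold enrichment. In an intron of MYT1, a zinc-finger factor of neural development, a member 2.40 kb from a start had 11 reads and 3.67-fold enrichment. That in SLC7A14, of an amino acid transporter family, matched at every letter, with 11 reads and 3.90-fold enrichment. Others were nearest to the coding starts of NR2F1, an orphan nuclear receptor of brain development (20.7 kb, 17 reads), and of LIN28A, an RNA-binding protein of pluripotent cells (2.08 kb, 14 reads). The members in FBXL16 and XKR6, with 3 mismatches each, had 17 and 14 reads. Elements also lay nearest to the coding starts of PRR23E, RPS19BP1, MRM1 and TMEM248, at 34.1, 13.2, 102.0 and 26.4 kb. These genes were named after their values had been seen, and no REST precipitation was used here, so a match describes the sequence only.

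**Figure D4:**
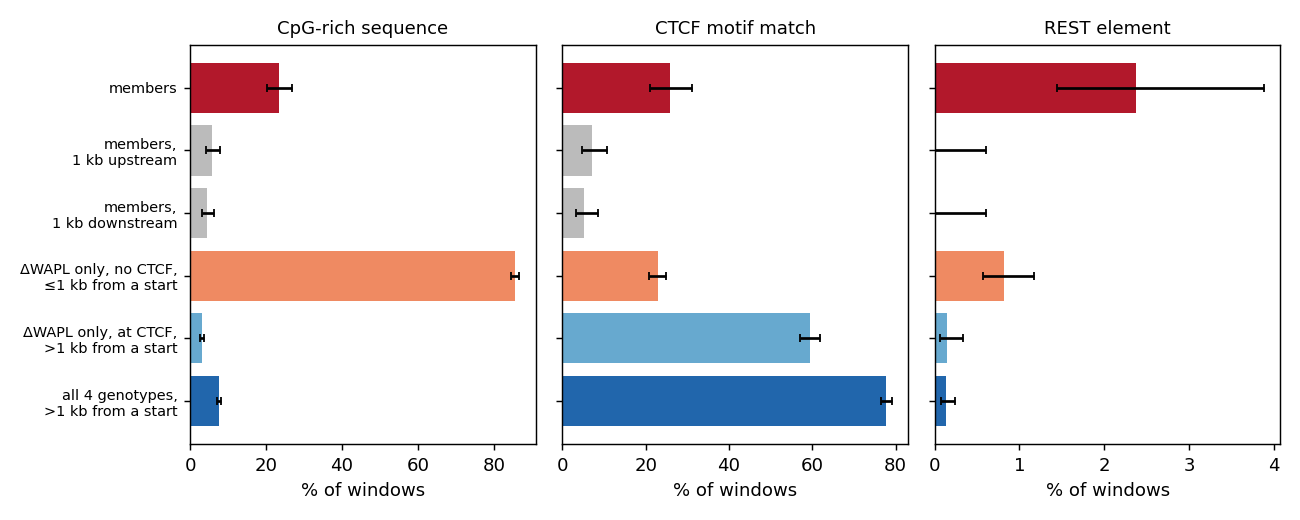
The bars give the percentage of windows that are CpG-rich (left), match the CTCF motif (middle, even chromosomes) or hold a REST element with at most 3 mismatches (right), with 95% Wilson intervals. The windows are the members' summits, positions 1 kb to either side of them, and the summits of the 3 classes of comparison. Members stand above their own flanks in all 3 panels, at 23.3%, 25.8% and 2.38%.

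These 3 properties did not cover all members. A REST element, a CTCF motif match or CpG-rich sequence was present in 278 of 631 (44.1%, 40.2 to 48.0), and 41 members were both CpG-rich and matched the CTCF motif. All of the 10 strongest members had at least 1 of the 3, with a CTCF motif match in 7, CpG-rich sequence in 4 and a REST element in 2. The other 353 of all members (55.9%) had none. Their median fold enrichment was 4.25 (4.20 to 4.37) and their median GC content 50.8% (49.8 to 52.2), still above that of the members' flanks. The strongest of these that is shown above, near RPUSD4, had 26 reads and 6.87-fold enrichment. That in the coding exon of DRD3, which encodes a dopamine receptor, had 26 reads and 6.09-fold enrichment, 31.2 kb from a start.

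To compare the members with like regions of the other genotypes, the same rule was applied with each genotype in turn, an addition made after the data had been seen. With 1 library per genotype, the library, the clone and the genotype changed together, so the values are set side by side with no test, and the intervals cover counting error only. Regions listed in only that genotype, without CTCF and more than 1 kb from a start, numbered 142 in wild-type cells, 71 in ΔSCC4 cells and 160 in the double mutant, and 632 in ΔWAPL cells. They were 56.6%, 56.8%, 35.6% and 15.1% of the 251, 125, 449 and 4192 single-genotype regions without CTCF. Their median fold enrichments were 4.39, 4.43 and 4.34 in that order, beside 4.26 for the members. The median GC content was 44.9% (43.5 to 45.9) for wild-type, 43.2% (41.5 to 45.2) for ΔSCC4 and 44.5% (42.9 to 46.5) for the double mutant, close to that of the members' flanks and below the 54.8% of the members. CpG-rich sequence was present in 7 of 141 wild-type regions (4.96%, 2.43 to 9.89), 2 of 69 of ΔSCC4 (2.90%, 0.798 to 9.97) and 13 of 159 of the double mutant (8.18%, 4.84 to 13.5), beside 23.3% of members.

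CTCF motif matches on even chromosomes were found in 3 of 62 wild-type-only regions (4.84%, 1.66 to 13.3) and in 2 of 35 of ΔSCC4 (5.71%, 1.58 to 18.6). In the double mutant the share was 19.5% (12.2 to 29.7, 15 of 77), and among members it was 25.8% (21.1 to 31.2). A REST element was found in 0 of 141, 1 of 69 and 1 of 159 regions, too few to set against the 15 of 631 members.

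**Figure D5:**
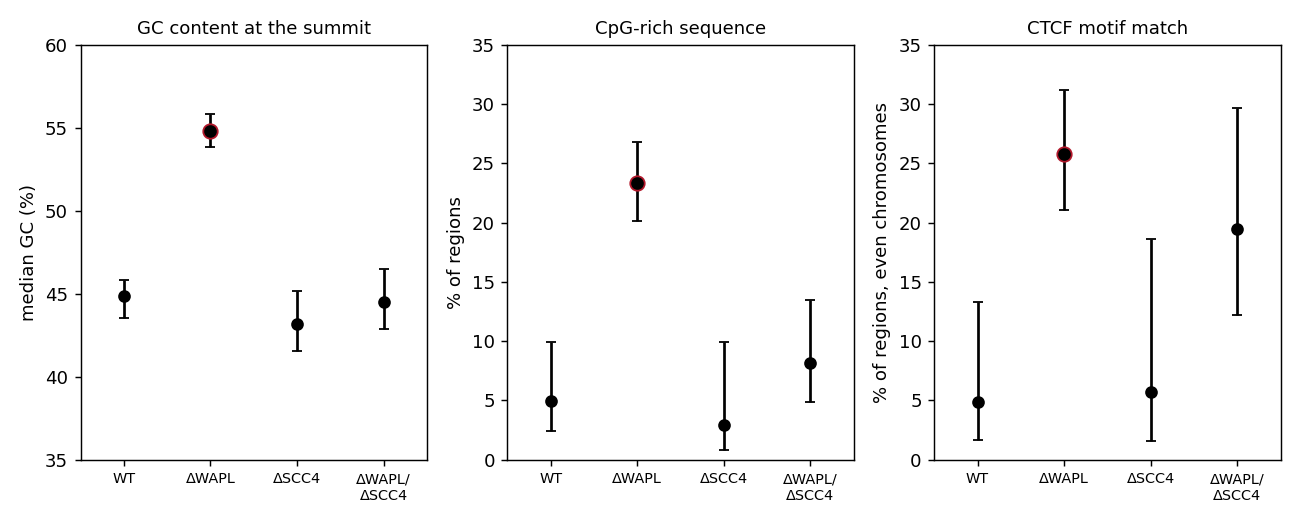
Points give the median GC content (left), the percentage of CpG-rich windows (middle) and the percentage with a CTCF motif match on even chromosomes (right) for regions listed in a single genotype, without CTCF and more than 1 kb from a start. Bars are 95% intervals for counting error, and the ΔWAPL point (red) stands for the members. It is above the wild-type and ΔSCC4 points in each panel.

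The IgG control gave little at these positions. Of the 632 members, 4 overlapped an IgG peak of any genotype (0.633%, 0.246 to 1.62), 1 of them on the Y chromosome. This was more than the 3 of 3560 regions near starts (0.0843%), by 0.549 points (0.129 to 1.53), and less than the 241 of 8215 distal regions of all 4 genotypes (2.93%). Members at an IgG peak had fold enrichments of 2.29, 6.28, 2.78 and 2.68.

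Lastly, genes of fixed lists and genes with several members were examined. Members lay in 291 of 20090 protein-coding genes (1.45%), of which 278 held 1 member, 12 held 2 and 1 held 3. The gene with 3 was GRIK2, which encodes a kainate receptor subunit, where the members had 20, 18 and 16 reads and fold enrichments of 4.15, 3.54 and 3.39. The last 2 of these lay 708 bp apart. BCOR, a corepressor gene, held members of 3.52-fold and 4.09-fold enrichment, and CDH4, a cadherin gene, of 3.83-fold and 5.17-fold. Host genes were long, with a median of 164 kb over the 258 that were measured, against 27.2 kb for all protein-coding genes. Long genes also offer more sequence. Genes over 500 kb held 45 members (7.13%, 5.37 to 9.41), fewer than their 9.93% of the available bases. The fixed lists added little. None of 17 AP-1 and immediate early genes and none of 16 genes of cohesin subunits and regulators held a member, although members lay within 50 kb of the starts of FOSL2 and EGR1 (2 of 17 genes) and of PDS5B (1 of 16). Of all protein-coding genes, 2.56% had a member that near. Of 17 YAP/TEAD target genes, F3 (tissue factor) held an intronic member with 14 reads and 3.88-fold enrichment. Of 20 blood and leukaemia factors, MYB held one 1018 bp from a start, with 24 reads and 3.07-fold enrichment.

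The densest group was on chromosome 6, with 4 members between 28557384 and 28642233, of which 1 was in an exon of SCAND3 and 3 near LINC00533. Their pileups were 10, 14, 22 and 14 reads and their fold enrichments 4.00, 5.30, 5.61 and 3.62. A group of 3 on chromosome 14, between 35017335 and 35024249, lay beside RNU1-27P and RNU1-28P, copies of the U1 small nuclear RNA gene, with fold enrichments of 3.33, 3.64 and 3.004. The first 2 of these had summits 1415 bp from the start of RNU1-27P and 2178 bp from that of RNU1-28P. Whether reads are shared among such copies was not tested. The B box word of TFIIIC, GGTTCGANT, found in genes of RNA polymerase III, was present in 4 members (0.634%, 0.247 to 1.62) and 1 of 1262 flanks, and the members' excess was 0.555 points (0.0204 to 1.54). None of these windows also held the A box word at the spacing searched.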

How the data were processed

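Data were 12 ChIP-seq peak lists of HAP1 cells, 1 per genotype and antibody, grouped by their titles. The authors mapped reads to hg19 with Bowtie2 and called peaks with MACS2 2.1.1, with IgG as control per the methods. The lists were used as deposited, and the 4 SMC1 lists held 12779 to 33952 peaks. The deposited fold enrichment is a ratio of summit pileup to local background, with 1 added to each. The deposited −log10 p and −log10 q values are the caller's. All of these values were used to describe, rank and filter only. Pileup and background were solved from them as the whole number of reads that gave both values (tolerance 0.02 in −log10 p). All tested backgrounds above the floor were whole numbers of reads in 10 kb of the same library (tolerance 0.05), so strength is not relative to IgG. Average SMC1 depth ran from 6.79 to 8.41 reads per kb, with 7.66 for the ΔWAPL library.

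Members, gene lists and words were chosen with earlier results of these data known. Named regions were the 10 of highest −log10 q, the extremes, those at the 1 kb limit, genes with the most members, the densest cluster and genes of the fixed lists, outside IgG peaks. Starts were those of GENCODE version 44 mapped to GRCh37. Bases available were read at 1 of every 10 positions. The CTCF motif (19 bp) was learned from 1000 wild-type CTCF peaks of odd chromosomes at a score that 5% of flanks pass. Pileup, motif and REST element searches were tested on simulated data. Shares have Wilson, differences Newcombe and medians order-statistic 95% intervals, which cover counting error only. Python 3 with numpy, pandas, scipy and pysam was used.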

Additional observations from a re-analysis of the deposited data

How the results depend on the processing

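Of the 32 values that left their interval or range of 1.5 times, those of the main results were as follows. With a −log10 q of at least 5 in every list the members numbered 360, with 39.7% in protein-coding genes, CTCF motif matches in 31.7% and a median fold enrichment of 4.98. With at least 10 in every list they numbered 117, with 49.6% in genes, matches in 64.8%, a median GC content of 58.8%, 3.42% at IgG peaks and a fold enrichment of 6.35. Weak SMC1 peaks are dropped there and a weak CTCF peak no longer removes a region, by construction. Keeping only members that reached 10 left 28, with 39.3%, 46.2%, 57.1%, 3.57% and 6.07 for the same quantities. With starts more than 5 kb away there were 413, with 39.0% in genes, 1.69% at gene ends, a GC content of 53.2% and a fold enrichment of 4.37. Counting protein-coding starts only, 38.4% were in genes and GC content was 57.5%. Merging gaps of 500 bp and leaving out CTCF within 500 bp gave 0.192% at IgG peaks and a fold enrichment of 4.35, and leaving out IgG peaks gave 0% by construction. The other 40 values kept their range. GC content in all 8 alternatives stayed above that of the flanks of the members as first chosen. Flanks of the alternative sets were not measured. The share of CTCF motif matches never fell below 22.9%. No paired analysis was possible because each group has 1 library. Depth limits what an absent peak means: at the lowest background no wild-type peak was listed under 9 reads.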
